A study of Drosophila melanogaster with 3 samples.

Results

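The genes described here encode eukaryotic translation initiation factors (eIFs) in Drosophila melanogaster, and the data are chromatin immunoprecipitation (ChIP-seq) peak lists for the product of CG3838 (also called brwl). Members were all protein-coding genes of the Ensembl BDGP6 annotation whose symbol begins with eIF, which gave 44 of 13968 protein-coding genes. For each, the strongest region with its summit within 500 bp of any annotated transcription start site (TSS) was taken from every dm6 list. This rule uses no measured value, though it was chosen with earlier results of these data known. All 3 samples are biological replicates of 1 group: whole embryos of pooled sex, 0 to 24 h old, from a stable transgenic line that carries CG3838 fused at its C-terminal end to GFP, with precipitation by an antibody to GFP. The label for the antibody names CG3838 itself, while the description names GFP. The labels give neither the promoter that drives the fusion nor a sample without it among these 3. Binding in a few cells and weaker binding in many cannot be told apart in whole embryos, and neither can binding of the tagged protein and signal from open chromatin or the antibody.

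Translation initiation brings an initiator tRNA, a messenger RNA and the ribosomal subunits together at a start codon. In textbook outline, eIF2 delivers the initiator tRNA and is recharged by its exchange factor eIF2B, eIF1 and eIF1A keep the small subunit scanning until the start codon is met, and eIF3 is the large scaffold on that subunit. The eIF4 factors bind the cap and unwind the message, eIF5 and eIF5B act in GTP hydrolysis and subunit joining, and eIF6 holds the large subunit apart. In flies eIF4EHP is a cap-binding repressor, known in the early embryo for its part in silencing caudal and hunchback mRNA.

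Sequences under thresholded summits are shown for 4 of the members with such a peak. The summits shown lay outside annotated exons. For eIF1, eIF1A and eIF4EHP the strongest summit lay between divergent start sites, and for eIF3h it lay in an intron of the gene instead. The sequence at eIF3c, whose summit was also intergenic, is not shown. Each stretch reaches at most 100 bp to either side of a summit and was cut at annotated exons. It is written 5′ to 3′ on the member's strand from the dm6 sequence (RefSeq release 6 assembly). Capitals mark matches on either strand to the DNA replication-related element (DRE), TATCGATA, or to TATAAA, which were 2 of the 6 motifs searched.
eIF1, summit nearer to RpL28, chr3L:3222961-3223123, plus strand: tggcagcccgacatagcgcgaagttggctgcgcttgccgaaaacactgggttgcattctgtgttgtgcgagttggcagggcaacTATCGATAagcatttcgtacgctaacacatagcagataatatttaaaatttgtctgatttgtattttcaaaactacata
eIF1, summit nearer to eIF1, chr3L:3223151-3223340, plus strand: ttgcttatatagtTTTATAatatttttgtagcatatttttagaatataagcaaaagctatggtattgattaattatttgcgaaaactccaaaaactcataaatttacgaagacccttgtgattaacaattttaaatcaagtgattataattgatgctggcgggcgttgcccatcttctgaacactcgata
eIF1A, between Vps39 and eIF1A, chr3R:18274447-18274578, plus strand: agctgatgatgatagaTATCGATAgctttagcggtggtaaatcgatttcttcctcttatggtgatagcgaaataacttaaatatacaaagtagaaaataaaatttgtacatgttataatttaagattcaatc
eIF4EHP, between CG18428 and eIF4EHP, chr3R:24109071-24109271, minus strand: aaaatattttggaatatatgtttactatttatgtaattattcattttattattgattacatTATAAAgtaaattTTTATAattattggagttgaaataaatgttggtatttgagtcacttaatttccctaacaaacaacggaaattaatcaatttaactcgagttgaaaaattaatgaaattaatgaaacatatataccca
eIF3h, intron, chr2L:5052381-5052581, minus strand: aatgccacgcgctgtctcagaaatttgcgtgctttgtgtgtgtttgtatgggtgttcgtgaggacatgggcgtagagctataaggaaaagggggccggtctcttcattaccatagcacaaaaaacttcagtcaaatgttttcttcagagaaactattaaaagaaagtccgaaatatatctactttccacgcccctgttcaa

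The DRE is bound in flies by the factor Dref and is known from promoters of housekeeping genes. In the eIF1 stretch the DRE began 22 bp from the stronger summit, 85 bp from the nearest RpL28 TSS and 289 bp from that of eIF1. In the eIF1A stretch it lay 8 bp from the summit and 17 bp from the Vps39 TSS, and 195 bp from that of eIF1A. Both DREs were thus closer to the neighbour than to the eIF gene. The eIF4EHP stretch held 2 TATAAA matches, 21 and 34 bp from its summit, but at 232 and 245 bp they were far from the annotated eIF4EHP TSS. Its base composition was the most AT-rich of the members with a peak, with 19.9% GC within 100 bp of the summit. The other 6 ranged from 31.3% to 44.3%, and the median over promoter summits of the whole list was 34.8%. The eIF3h stretch held none of the 6 motifs. Within 100 bp of the strongest summit, 3 of the 7 members with a peak had a DRE (42.9%). The share was 7.07% over 1202 thresholded promoter summits. TATAAA was found at 3 of the 7 (42.9%), beside 37.9%. Neither difference was tested.

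Thresholded peaks are those that passed the authors' filter on agreement between replicates (2239 in the genome). They equal the 2239 strongest regions of the replicates pooled, so a peak among them need not rank high in every replicate. Such peaks were found at 7 of the 44 eIF genes (15.9%), beside 11.6% of all protein-coding genes. The 7 were eIF6, eIF4EHP, eIF1, eIF3c, eIF3h, eIF5B and eIF1A. No test was made of this difference, and the share stood near the background. eIF genes whose thresholded peak overlapped the strongest 2239 regions of both remaining replicates numbered 4, 5 and 4 without replicates 1, 2 and 3. As shares these were 9.09%, 11.4% and 9.09%, beside 7.67%, 7.74% and 7.93% of all protein-coding genes. Strengths are the authors' signal values, whose scale the sources do not describe, and are compared only within a list. The median signal of the 7 was 181.2, beside 156.3 for the 1625 protein-coding genes with a thresholded peak. In the pooled list, which has no such threshold, 23 of the 44 (52.3%) had a promoter region, beside 38.3% of all protein-coding genes.

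**Figure D1:**
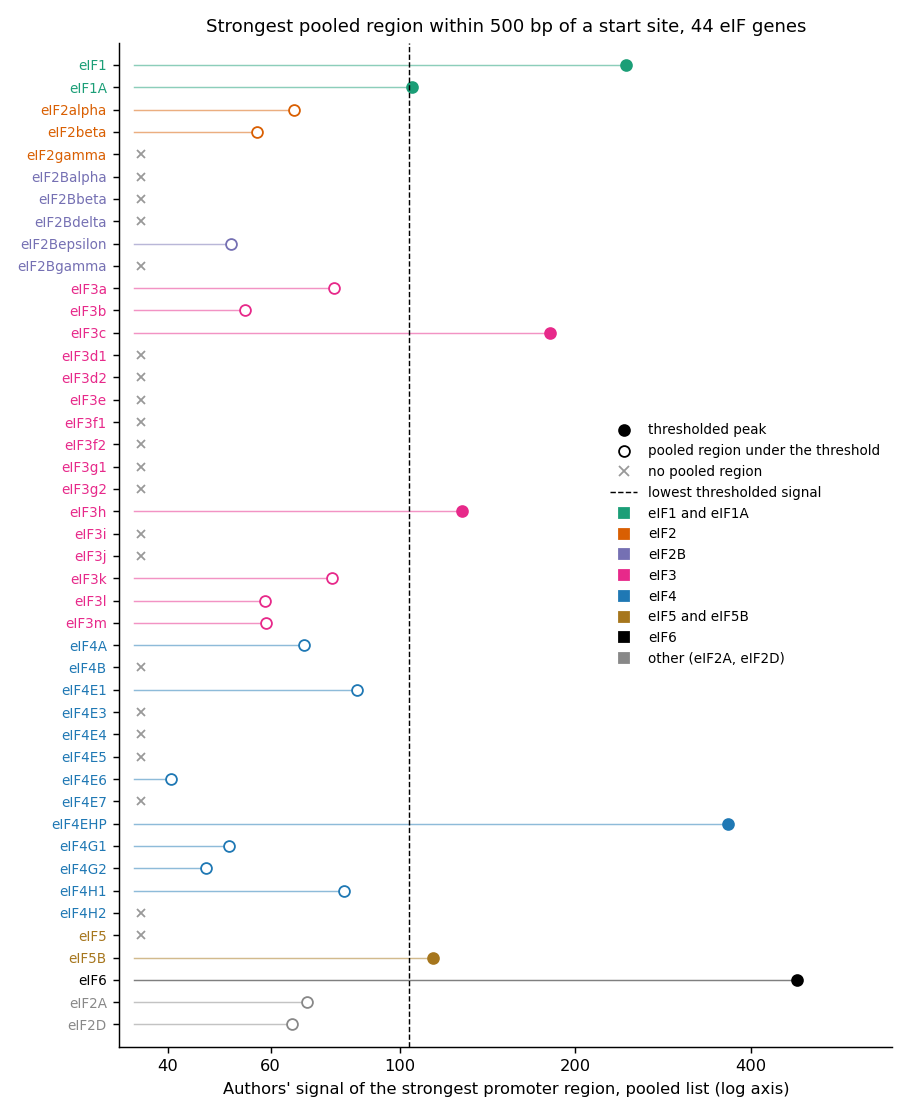
Signal of the strongest pooled region within 500 bp of a start site for each of the 44 eIF genes (log axis), coloured by factor; filled points are thresholded peaks, open points weaker pooled regions and crosses genes with none, and the dashed line is the lowest thresholded signal, 103.5. The plot shows 7 filled points from 104.9 to 480.9 and 16 open points from 40.41 to 84.48.

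eIF6 carried the strongest peak of the family. Gene eIF6 (FBgn0034915) lies on 2R from 23849246 to 23850301, minus strand, and the summit at 23850404 had a signal of 480.9, rank 76 of 2239. In the replicates' own lists the signals were 137.7, 196.3 and 133.7 in replicates 1, 2 and 3, with ranks of 86, 74 and 134. It was thus near the top of every list. The summit lay 103 bp upstream of the eIF6 TSS, in an intron of ytr and in a non-coding exon of the antisense RNA gene asRNA:CR45928. The antisense gene starts nearer to the summit, at 74 bp, so the peak cannot be assigned to either start site. The 100 bp to either side of this summit held both a DRE and a TATAAA match. Over all thresholded promoter summits, 7.07% of such windows held a DRE and 37.9% TATAAA.

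eIF4EHP followed with a signal of 365.3, rank 154. The gene (FBgn0053100) spans 3R from 24063077 to 24108960, minus strand, and the summit at 24109171 lay in intergenic sequence upstream of the eIF4EHP TSS (-211 bp) and 165 bp upstream of that of CG18428. The replicates' signals were 70.4, 110.7 and 173.0, with ranks of 396, 288 and 78. Replicate 3 thus ranked it highest, while all 3 lists held it among their strongest 500 regions. A weaker pooled summit with a signal of 81.3 followed at -414 bp, in the 5' UTR exon of CG18428. The eIF4EHP gene body held further thresholded summits at 24105698 and 24106326, with signals of 175.1 and 133.5. The former lay 65 bp from a start site of Syx1A, a syntaxin gene, in its 5' UTR exon and in an intron of eIF4EHP.

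eIF1 shared its promoter with a ribosomal protein gene. The gene (FBgn0035423) lies on 3L from 3223341 to 3224650, plus strand, 381 bp from the nearest TSS of RpL28, which is transcribed away from it. This interval held a pair of thresholded summits. The stronger, with a signal of 244.2 and rank 376, was 63 bp upstream of RpL28 and 318 bp upstream of eIF1. The weaker, with 121.7 and rank 1659, was 90 bp upstream of eIF1, so the peak next to the eIF gene was the weaker of the pair. The replicates' strongest regions within the eIF1 window had signals of 75.0, 93.3 and 78.8 and ranks of 346, 424 and 434, which are close to each other. Their summits were at -339, -316 and -200 bp from the eIF1 TSS, that is, on the RpL28 side in replicates 1 and 2 and about midway in replicate 3.

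eIF3c and eIF3h were the only members of the eIF3 complex with a thresholded peak among 16 eIF3 genes. eIF3c, a core subunit gene (FBgn0034258, 2R from 17665678 to 17669275, plus strand), had a summit 81 bp upstream of its own TSS with a signal of 181.2, rank 724. No other protein-coding gene started within 500 bp of that summit. The replicates' signals of 53.7, 66.6 and 56.0 gave ranks of 705, 879 and 959, all within the strongest 2239. eIF3h (FBgn0022023, 2L from 5051193 to 5053094, minus strand) differed in position, with its summit at 299 bp downstream of the nearer of its TSSs, in an intron, and a signal of 127.8, rank 1476. The replicates disagreed on it, with signals of 57.4, 41.7 and 24.4 and ranks of 620, 2240 and 5479. In replicate 2 the strongest region lay at another place, 17 bp downstream of that TSS, where the pooled list has a weaker summit of 82.9. Ordered by the thresholded summit nearest to a TSS, eIF3h at 299 bp was the last gene inside the 500 bp window, and the first outside it was eIF2Bbeta, 698 bp from a summit with a signal of 1182.

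eIF5B and eIF1A had the weakest thresholded peaks of the family. eIF5B, the subunit-joining GTPase (FBgn0026259, 3L from 3428658 to 3460977, minus strand), had a summit at 3460727, in its 5' UTR exon and 124 bp upstream of its downstream TSS, with a signal of 114.0, rank 1877. The replicates' signals were 34.9, 26.3 and 53.2, with ranks of 1755, 5507 and 1077, so that replicate 2 placed it well below the strongest 2239. eIF1A (FBgn0026250, 3R from 18274665 to 18283005, plus strand) had a signal of 104.9, rank 2185, close to the lowest thresholded signal of 103.5. Its summit lay 187 bp upstream of eIF1A but 32 bp from the TSS of Vps39, a gene for a vesicle tethering subunit. The replicates' signals of 34.7, 33.3 and 34.1 gave ranks of 1783, 3404 and 2707, within the strongest 2239 in replicate 1 alone. In replicate 1 the strongest region of the window was nearer to eIF1A, 56 bp upstream of its TSS. The deposited −log10 q values were 3.10 for eIF5B and 2.41 for eIF1A, and 3.53 for the other 5.

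**Figure D2:**
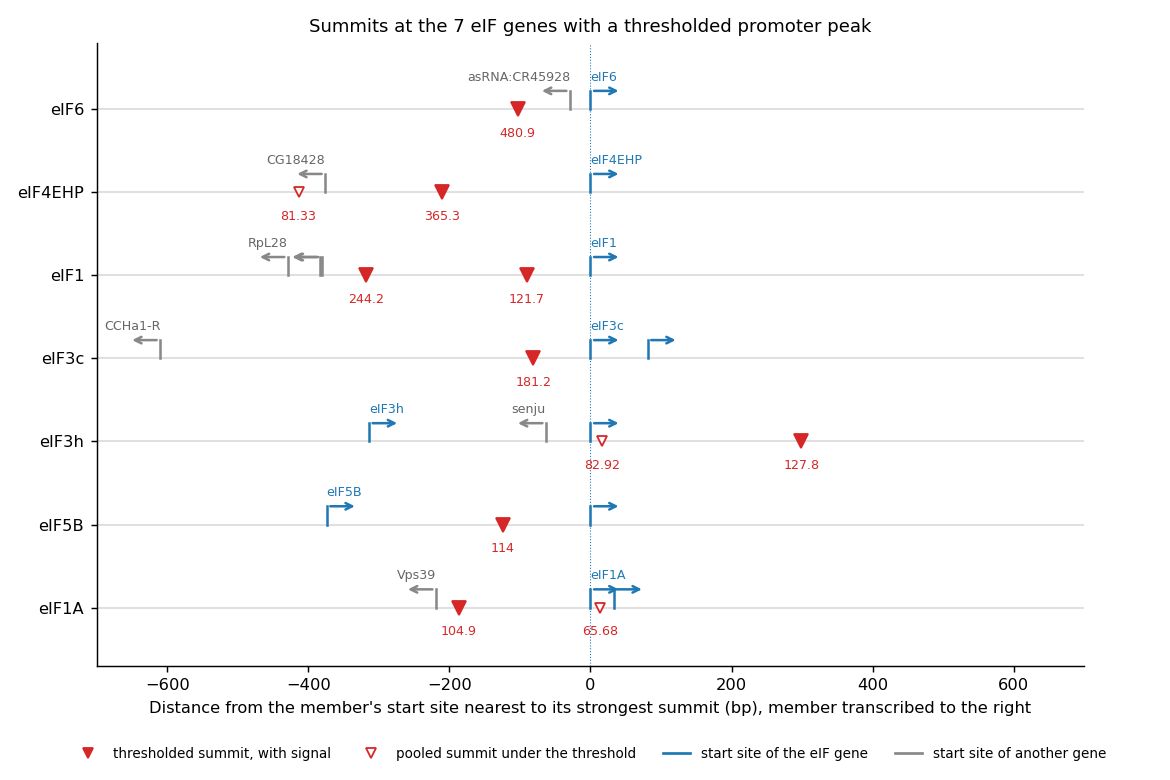
Summits of pooled regions around the 7 eIF genes with a thresholded promoter peak, by distance in bp from the member's start site nearest to its strongest summit, with the member transcribed to the right; filled triangles are thresholded and open ones are not, numbers are the authors' signals, and arrows are start sites. All strongest summits but that of eIF3h, at 299 bp, lie upstream of this start site, and those of eIF1 (244.2) and eIF1A (104.9) are closer to RpL28 and Vps39.

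The peaks lay on the upstream side, where all genes had theirs too. The strongest thresholded summit was upstream of the nearest member TSS in 6 of 7 cases, with a median of -124 bp, beside -135 bp and 86.2% upstream for all protein-coding genes with a peak. For the 23 members with a pooled region the median was -104 bp, beside -113 bp for all. Of the 7 summits, 4 were also within 500 bp of the TSS of another protein-coding gene (RpL28, CG18428, Vps39 and senju), 57.1% beside 60.4% over all genes with a peak. For eIF1, eIF4EHP and eIF1A the other protein-coding gene was the nearer one, 42.9% of the 7 beside 29.8% over all genes with a peak.

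Most of the genes with a thresholded peak were divergent, 6 of the 7 beside 1078 of the 1625 over all protein-coding genes. Divergent means that another protein-coding gene starts within 1000 bp and is transcribed away from the member on the opposite strand. There were 21 such eIF genes (47.7%), beside 36.2% of all protein-coding genes. Of these 21, 6 had a thresholded peak (28.6%), beside 21.3% of all divergent genes, and of the 23 others 1 did, eIF6 (4.35%), beside 6.14%. Pooled regions were found at 14 of the 21 (66.7%, beside 58.8%) and at 9 of the 23 (39.1%, beside 26.6%). With partners of any gene type counted, 23 members were divergent (52.3%, beside 41.6%), eIF6 among them, and 7 of the 23 had a thresholded peak (30.4%, beside 19.9%). The difference between eIF genes and all genes was not tested in either class. A divergent neighbour was no guarantee of a region. eIF2Balpha and Vps13B start 90 bp apart and eIF2Bdelta and roh 58 bp apart, yet both eIF2B genes had no region in any dm6 list.

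The replicates' own lists gave the family a share close to that of all genes. Among the strongest 2239 regions of each list, eIF genes with a promoter region numbered 7, 5 and 6 in replicates 1, 2 and 3, a mean of 6.0 ± 1.0 (SD, n = 3). As shares these were 15.9%, 11.4% and 13.6%, beside 10.8%, 10.8% and 12.3% of all protein-coding genes in the same lists. The eIF share was higher in 3 of 3 lists, but its mean of 13.6% ± 2.27 (SD) exceeded the 11.3% ± 0.891 of all genes by about the SD between replicates. eIF6, eIF4EHP, eIF1 and eIF3c were in all 3 of these lists, 9.09% of members beside 6.72% of all protein-coding genes. The first 3 of them were among the strongest 500 regions of every replicate, which held for 1.88% of all protein-coding genes. eIF4E1 entered this range in replicate 2 alone and eIF4H1 in replicate 3 alone. The replicates lack read counts, so their depth is unknown.

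**Figure D3:**
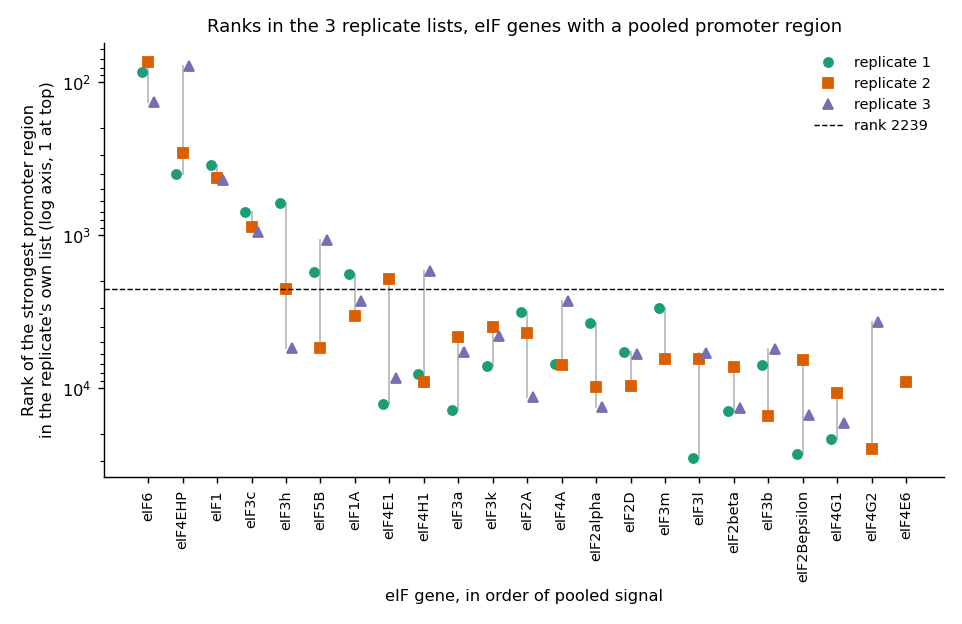
Rank of the strongest promoter region in each replicate's own list (log axis, rank 1 at the top) for the 23 eIF genes with a pooled promoter region, in order of pooled signal; symbols are replicates, a grey line joins the replicates of a gene, and the dashed line marks rank 2239. The symbols of eIF6, eIF4EHP, eIF1 and eIF3c all lie above the line, and those of eIF3h, eIF5B and eIF1A fall on both sides of it.

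The eIF2 and eIF2B genes had no thresholded peak. Of the 3 eIF2 subunit genes, eIF2alpha, whose product is phosphorylated under stress, had a pooled region with a signal of 65.8, 7 bp downstream of its TSS, and eIF2beta one with 56.8. The replicates ranked the eIF2alpha region 3774, 9812 and 13369. eIF2gamma had weak regions in replicates 2 and 3 only, at ranks 27476 and 10486. Of the 5 subunits of the exchange factor, eIF2Bepsilon, the catalytic subunit gene, had a pooled region with 51.3. Its summit was at -334 bp, in a 5' UTR exon of the neighbour Ocrl. eIF2Bgamma had regions at ranks 20751 and 8324 in replicates 1 and 2 only. The related genes eIF2A and eIF2D, whose products can place an initiator tRNA without eIF2 in other systems, had pooled signals of 69.2 and 65.3. Both were listed in all 3 replicates.

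Within eIF3, the 16 genes ranged from the peak of eIF3c to no region at all. Besides eIF3c and eIF3h, 5 had a weaker pooled region, namely eIF3a (76.9), eIF3k (76.6), eIF3m (58.9), eIF3l (58.7) and eIF3b (54.2). The eIF3a summit lay in a 5' UTR exon of the neighbour CG1074. That of eIF3l was at -360 bp, with the divergent gene Nrx-IV starting 422 bp from eIF3l. The ranks of eIF3a were 14055, 4626 and 5842 in replicates 1, 2 and 3, while those of eIF3k were 7226, 3969 and 4538. Agreement between the lists under the threshold was not measured. eIF3d1, eIF3f1, eIF3f2 and eIF3j had regions in 1 or 2 replicate lists and none in the pooled list. The highest rank among them was that of eIF3f1 in replicate 1, 2553, while replicate 2 placed it at 23833. eIF3d2, eIF3e, eIF3g1, eIF3g2 and eIF3i had none anywhere. The duplicated subunits gave no common pattern, since eIF3d1 but not eIF3d2 had a replicate region, both eIF3f genes did, and neither eIF3g gene did.

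Among the 13 eIF4 genes only eIF4EHP had a thresholded peak, while the canonical cap-binding gene eIF4E1 had a pooled signal of 84.5, the highest under the threshold in the family. Its region lay 41 bp downstream of a TSS, in a 5' UTR exon, and ranked 12757, 1928 and 8561 in replicates 1, 2 and 3. eIF4H1, for an RNA-binding cofactor of the helicase, had 80.2 and ranks of 8112, 9109 and 1706. Each of these genes was thus strong in 1 replicate and weak in the other two. The helicase gene eIF4A had a pooled pair of summits with signals of 68.4 and 57.3, and the scaffold genes eIF4G1 and eIF4G2 had 50.8 and 46.4. The eIF4G2 summit lay in an intron of CG34355. Among the further eIF4E copies, eIF4E6 had the weakest pooled region of all members (40.4, rank 15361), eIF4E3 had regions in replicates 1 and 2 only, and eIF4E4, eIF4E5 and eIF4E7 had none. eIF4B and eIF4H2 had none either. eIF5, whose product stimulates GTP hydrolysis by eIF2, had a region in replicate 1 alone, at rank 14785.

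In all, 13 of the 44 eIF genes had no promoter region in any dm6 list (29.5%), beside 36% of all protein-coding genes. A further 8 (18.2%) were in at least 1 replicate list but not in the pooled one, beside 25.8% of all protein-coding genes. The lists of any strength held 26, 29 and 23 eIF genes in replicates 1, 2 and 3, or 59.1%, 65.9% and 52.3%, beside 42.6%, 49.1% and 43.9% of all protein-coding genes. These lists include background regions by the authors' own naming.

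**Figure D4:**
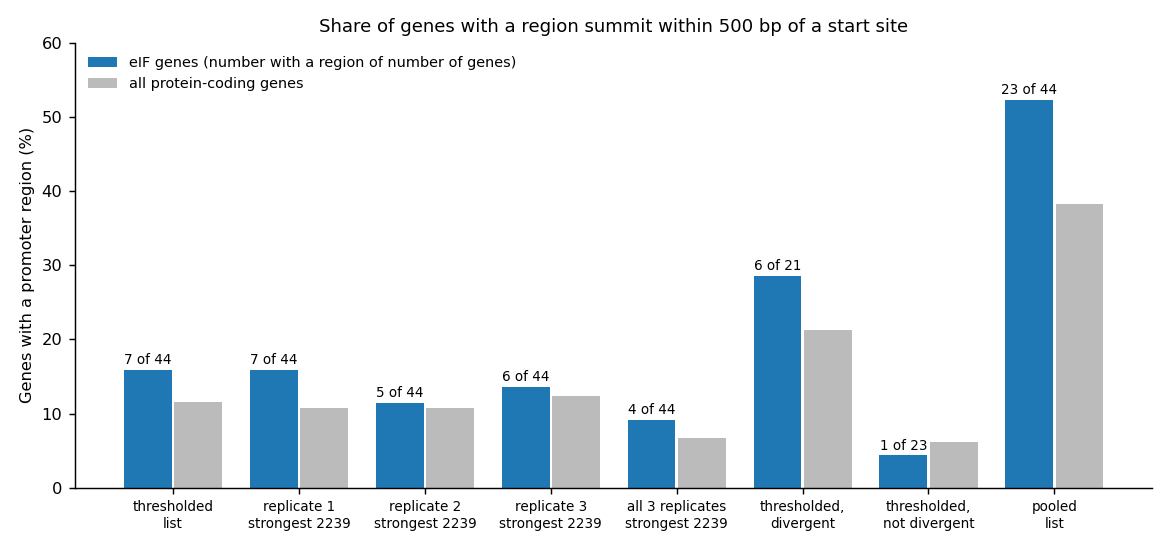
Percentage of genes with a region summit within 500 bp of a start site, for eIF genes (blue, with counts above the bars) and all protein-coding genes (grey), by list; bars are single counts without error. The eIF bar is the higher in each pair but that of genes without a divergent promoter, where it is 4.35% beside 6.14%.

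Core promoter elements were counted in the promoters of all members, from 250 bases before to 50 after each of their 62 TSSs, on both strands. The DRE was found in 14 of the 62 (22.6%), beside 7.98% of 19630 promoters of all protein-coding genes. By gene, 13 of 44 had one (29.5%), beside 10.2%, among them eIF1A, eIF3c, eIF6, eIF4A, eIF3a and eIF2alpha. Of the 13 members with a DRE, 3 had a thresholded peak and 9 a pooled region, and of the 31 without it 4 and 14. The latter include eIF1, as the DRE by its strongest summit lies 289 bp from its TSS, outside the 250 bases searched. Over all protein-coding genes the thresholded shares with and without a DRE were 17.8% and 10.9%, and the pooled shares 59.7% and 35.8%. For the members these were 23.1% and 12.9%, and 69.2% and 45.2%. Of the other motifs, Motif 1 was found in 6.45% of member promoters beside 3.83%, CACGTG in 8.06% beside 4%, CAGCTG in 9.68% beside 17.9%, GAGAG in 25.8% beside 33.1% and TATAAA in 37.1% beside 42.2%. CTTT within 2 bases of the TSS on the gene's strand, the core of the initiator known from ribosomal protein genes, was at 1 of 62 member TSSs (1.61%), that of eIF3m. It was at 2.35% of all TSSs and at 13.3% of those of cytoplasmic ribosomal protein genes. The search thus matched only 21 of 158 TSSs of the genes from which the initiator is known. It cannot show that eIF genes lack the initiator. None of these differences was tested, and a divergent neighbour's element can fall in a member's window.

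Of the 13 members with a DRE, 2 (15.4%) had no region in any dm6 list, beside 16.8% of all protein-coding genes with a DRE. The eIF4B promoter is shown because it holds the element 19 bp upstream of the TSS (first base at -19) and no region was listed there. The thresholded summit nearest to eIF4B was 4979381 bp away, while each of the other members had one within 98396 bp. The eIF4B TSS, at 27858271, is close to the end of 3L, which is 28110227 bp long. Whether the missing region goes with the gene or with this stretch of the arm cannot be told apart. The 100 bases before the eIF4B TSS, from the same assembly and with the DRE in capitals, follow.
eIF4B, chr3L:27858272-27858371, minus strand: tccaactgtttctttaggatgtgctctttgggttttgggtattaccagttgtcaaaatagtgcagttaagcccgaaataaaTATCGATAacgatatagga
eIF2Bbeta, with a DRE from 28 bp downstream of its TSS, was the other member with the element and without a region.

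Beyond the eIF genes, thresholded peaks were counted for other factors of translation. Of 20 genes for regulators of initiation, 5 had one (25%), beside 11.6% of all protein-coding genes. They were larp, for a La-related RNA-binding protein (signal 661.1), Rack1, for a scaffold on the small subunit (145.5), Paip2, for an inhibitor of the poly(A)-binding protein (133.4), Gcn2, for an eIF2alpha kinase (117.9), and mxt, for an eIF4E-binding protein (107.4). The larp peak ranked 44, 36 and 50 in the replicates, higher than any eIF gene in each list. Of 13 genes of elongation and termination, 5 had one (38.5%), namely eEF1gamma (290.0), eEF5 (132.0), eRF1 (124.8), HBS1 (122.3) and eEF1alpha1 (115.2). Cytoplasmic ribosomal protein genes had 44 of 93 (47.3%). Among the strongest 2239 regions of replicates 1, 2 and 3 the counts were 3, 5 and 8 for the 20 regulators. They were 5, 3 and 4 for the 13 genes of elongation and termination, and 45, 47 and 27 for the 93 ribosomal protein genes. Over all protein-coding genes the shares in the same lists were 10.8%, 10.8% and 12.3%. Of the named genes, larp, Rack1, Paip2 and eEF1gamma were in this range in all 3 replicates. Gcn2 was missing in replicate 1, and eEF5 and eEF1alpha1 in replicate 3. In replicate 3 alone were mxt and eRF1, and in replicate 1 alone HBS1. Start sites of neighbouring genes are not given for these peaks. Differences between these lists and the eIF genes were not tested.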

How the data were processed

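ChIP-seq of 3 replicates was deposited as peak lists. Regions were called, per the deposited README files, by the authors on each replicate and on the replicates pooled, against 1 control file, and the pooled list was thresholded for reproducibility. The aligner, the caller and their versions were not given in the sources used here. Every region has a deposited signal value on an undescribed scale, a deposited −log10 q value and a summit. Both are the authors' own, used only within a list. Only the dm6 lists were used. The thresholded list equals the 2239 strongest pooled regions (15592 in all), and the replicate lists hold 30000, 30000 and 21147.

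Start sites came from Ensembl release 115 and bases from the RefSeq release 6 assembly, both in dm6 coordinates, with unplaced sequence left out. Ranks follow signal. The counting code was tested on simulated summits (Python 3.11.15, pandas 2.3.3). No hypothesis test was made: 1 group exists, and genes are not replicates. Chromatin was sheared to 200 to 800 bp, per the labels, which limits the resolution of summits.

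Named are all members with a thresholded peak, members with weaker regions by value or range, and listed pathway genes with a thresholded peak. The members and lists were chosen with earlier results of these data known. The symbols Tor and DHPS of the pathway lists matched no single gene. Alternatives covered the window, threshold, start sites, list length and replicates.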

Additional observations from a re-analysis of the deposited data

How the results depend on the processing

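The count of 7 eIF genes with a thresholded peak was 6 with a 250 bp window (13.6%, beside 9.29% of all genes). It was also 6 with regions that cover a TSS (beside 7.93%) and with the most upstream TSS alone (beside 10.2%). The gene lost each time was eIF3h. With a 1000 bp window, which adds eIF2Bbeta, the count was 8 (18.2%, beside 13.3%). With the strongest 500 peaks it was 3 (6.82%, beside 3.05% of all genes), and with all pooled regions 23 (52.3%, beside 38.3%). When peaks had to be among the strongest 2239 regions of both remaining replicates, the count was 4 to 5, with 4 without replicate 1, 5 without replicate 2 and 4 without replicate 3, beside 7.67%, 7.74% and 7.93% of all genes. This asks for more support than the main list, so fewer genes pass by construction. The mean count per replicate of 6.0 was 3 for the strongest 500 regions (6.82%, beside 3% of all genes). It was 18 for the strongest 10000 (40.9%, beside 28.9%) and 26 for all regions (59.1%, beside 45.2%). When 1 replicate was left out it was 5.5 to 6.5, beside 10.8% to 11.5% of all genes. The median summit position was -104 bp in the pooled list and -145 bp with the most upstream TSS alone. Divergent members numbered 18 at 500 bp (40.9%, beside 27.3% of all genes) and 23 with a partner of any gene type (52.3%, beside 41.6%). The alternative with any gene type was added after seeing the data. Under it eIF6 was divergent, so that all 7 genes with a peak were. No paired analysis was possible because there is 1 group. Without read counts, a gene with no region cannot be given a limit on its signal.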

Other observations

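Thresholded summits in or near eIF genes also lay outside the 500 bp windows. Nearest to a member's start was the peak 698 bp upstream of eIF2Bbeta, with a signal of 1182 and rank 10 in the genome, which was 21 bp from the TSS of Ugalt, a UDP-galactose transporter gene divergent from eIF2Bbeta. The eIF2Bbeta start itself had no region in any dm6 list. The next by distance were 1265 bp upstream of eIF3d1, at GILT2 (signal 170.9), 1277 bp upstream of eIF2Bgamma, at CG8187 (142.3), and 1354 bp downstream of the eIF3g1 TSS, at Smyd3 (148.7). Each lay within 121 bp of a start site of the gene named.

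Long introns of eIF5B held a pair of thresholded summits at 3L 3450797 and 3432809, with signals of 114.8 and 112.1, close to the 114.0 of its promoter peak. They were 9806 and 27794 bp from the nearest eIF5B TSS. The former ranked 2326, 1287 and 3631 in replicates 1, 2 and 3 and the latter 2407, 3000 and 1740, so each was among the strongest 2239 regions of 1 replicate. The nearest TSS of any gene was 9806 bp away for the former and 7874 bp for the latter, that of sty.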
